A study of Mus musculus with 8 samples.

Results

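Immediate early response genes are transcribed within minutes of a growth factor, stretch, calcium or stress signal, before any new protein is made. This account describes 39 of them in the hearts of mouse embryos (Mus musculus) at E18.5, shortly before birth, grouped by family. The members were taken from a fixed list of symbols, chosen with earlier results of these data known. All 39 were found once among the 49315 genes of the count table. One genotype, with 4 libraries, carried the M195I allele of CHD4 on both chromosomes (CHD4 M195I/M195I, here mutant), CHD4 being the chromatin-remodelling ATPase of the NuRD complex; the other, also with 4 libraries, was wild type (WT). No agent, transgene or Cre driver is named for either genotype, and the labels give no age beyond the embryonic day. RNA came from dissected hearts without sorting, so fewer cells of a type and less RNA per cell cannot be told apart. The labels do not say that each library came from a separate litter, so the p-values measure the spread between these samples, which may in part be technical.

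As background, ERK and p38 kinases activate the ternary complex factors that sit with SRF on CArG boxes, and calcium and cAMP activate CREB on cAMP response elements (CREs). The first products are transcription factors (FOS, JUN, EGR, NR4A, ATF3, small MAF and KLF proteins) and inhibitors that end the signal (DUSP phosphatases, the RNA-decay factor ZFP36 and kinases such as SIK1). In the heart these genes are known to respond to load, adrenergic drive and ischaemia. Many of their transcripts are short-lived and carry AU-rich elements.

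Total counts ranged from 18673488 to 21341235 per mutant library and from 18375951 to 20815388 per WT library. Levels are CPM (read counts relative to library size) scaled by the trimmed mean of M values (TMM), given per library or as mean ± SD with n = 4 per genotype. Changes are log2 fold changes, mutant minus WT, ± the standard error of the fit, and a call means an adjusted p (edgeR, Benjamini-Hochberg over all 16372 genes tested) under 0.05. Chd4 itself was at 482 ± 8.48 CPM in mutant and 452 ± 6.37 CPM in WT hearts (0.09 ± 0.03, adjusted p = 0.0945), and counts per gene do not show the mutated codon. The file headers name all libraries as male, and Y-linked Ddx3y was present in each (70.3 to 80.4 CPM of library totals in mutants, and 35.5 to 79.9 in WT), with the lowest value in WT replicate 4. Y-linked Eif2s3y, Kdm5d and Uty were also lowest there, at 30.5, 19.2 and 15.5 CPM of library totals. Every other library had at least 68.2, 34.5 and 24.9 CPM of them. The reason was not tested. Airway RNA, read from Scgb3a2, exceeded 10 CPM of library totals in mutant replicates 3 and 4 and in WT replicates 1, 3 and 4. Defining heart markers were abundant: the 12 cardiomyocyte markers summed to 53040 to 59430 CPM in mutant and 62170 to 69750 CPM in WT libraries, ranges that do not overlap, and none of them was at 0.

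Early response genes were mostly lower in the mutant hearts. Of the 39 genes, all of which passed the filter on low counts, 19 fell and 2 rose, and 18 did not pass the threshold. Among all genes tested, 7.49% were called lower and 5.75% higher. Since the members were chosen with earlier results of these data known, their counts beside such shares are descriptions. Every mutant library lay below every WT library for 17 members, and above for 2, against 9.77% and 8.80% of all genes tested. The fitted change was below 0 for 36 of 39 members and for 50.0% of all genes tested, and the median log2 fold change was -0.33 over the members. Maff, Egr1, Nr4a1 and Nr4a3 had the largest called decreases, from -0.94 to -0.78, and Klf10 and Gadd45b were the members that rose. Xist, a transcript of the inactive X, stood at 1.55 to 1.98 CPM of library totals in mutant and 1.252 to 1.56 CPM in WT libraries, nearly apart by genotype. With Xist as a covariate, 4 members were called lower (Maff, Fosl2, Nr4a1 and Mafg) and 0 higher, while over all genes 141 were called lower and 109 higher, against 1226 and 942 without it. With it, 37 of 39 fitted changes were below 0 with a median of -0.345, but single members moved both ways. Egr1 stood at -0.74 (adjusted p = 0.112) and Klf10 at 0.41 (adjusted p = 0.0671), near their values without it. Nr4a3 went from -0.79 to -0.45, Nr4a1 from -0.79 to -0.57, Dusp5 from -0.33 to -0.19 and Gadd45b from 0.44 to 0.32. Farther below 0 with it were Fosl2 (-0.44 to -0.55), Csrnp1 (-0.52 to -0.63) and Junb (-0.27 to -0.47). The cause of the lost calls was not tested.

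**Figure D1:**
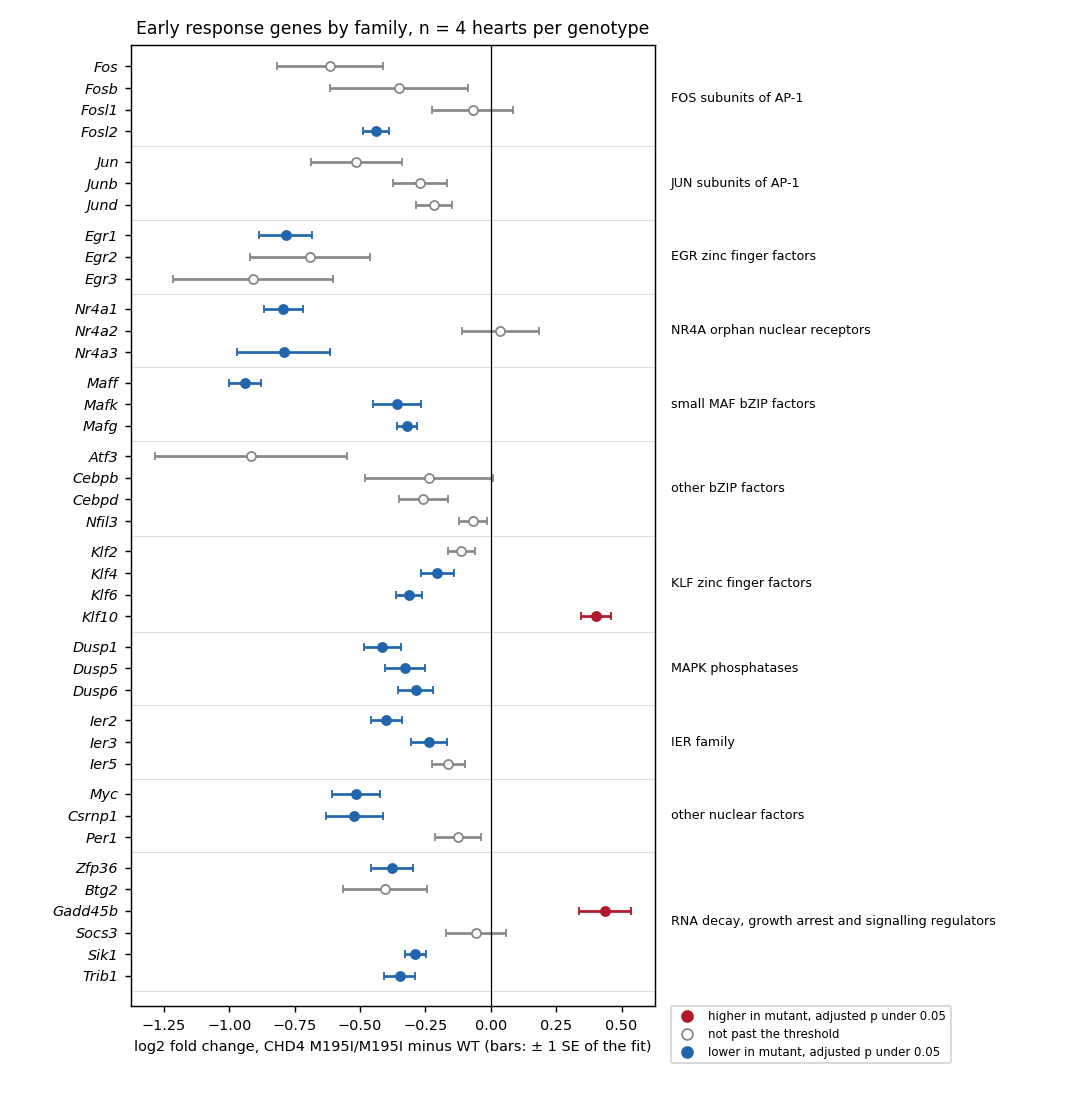
Log2 fold change of each early response gene (horizontal axis, mutant minus WT, bars ± 1 standard error of the fit) by family. Filled blue points mark the 19 genes called lower, filled red points the 2 called higher (Klf10 and Gadd45b), and open points the 18 that did not pass; the largest called decrease is that of Maff at -0.94.

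Of 5 promoters that hold a CRE or a CArG box, 4 are shown; that of Zfp36 is not, since its RefSeq start lies 1025 bases from the gene's start in the count files. CREs and CArG boxes are the elements through which CREB and SRF are known to act on this class of genes. RefSeq (GRCm38.p6) gave a promoter window for 30 of the 39 genes, and for 23 of these its start lay within 100 bases of the gene's start in the count files. The others, up to Atf3 at 34706 bases, stay in the counts. Egr1, Egr3, Fosl1, Cebpd, Klf10, Ier2, Myc, Sik1 and Trib1 had no window. In the 250 bases before the RefSeq start, on either strand, the full CRE TGACGTCA was found in 3 of 30 members (Maff, Dusp1 and Btg2). It was found in 1.55% of all 32851 windows of the same length. A CArG box was found in 2 of 30 (Dusp5 and Zfp36) and in 1.47% of all windows. The EGR site GCGNGGGCG was found in 13 of 30 members and in 4.70% of all windows. By call, it was in 6 of 14 members that fell and 6 of 15 that did not pass; the median GC content was 65.2% over the members' windows and 52.4% over all of them. Neither the AP-1 site TGANTCA nor the NR4A site AAAGGTCA was found in the 30 windows, against 6.75% and 1.34% of all windows. These matches describe letters in a window and not binding. The 250 bases before the start follow, 5′ to 3′ on the gene's strand, with CREs, CArG boxes and EGR sites in capitals.
Maff (chr15:79347270-79347519, plus strand; an EGR site beginning at -88 and a CRE at -29 from the start): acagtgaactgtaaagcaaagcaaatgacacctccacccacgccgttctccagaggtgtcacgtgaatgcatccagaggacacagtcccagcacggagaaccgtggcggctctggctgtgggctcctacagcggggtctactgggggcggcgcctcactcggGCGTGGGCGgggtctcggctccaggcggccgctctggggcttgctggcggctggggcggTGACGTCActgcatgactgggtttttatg
Dusp1 (chr17:26508473-26508722, minus strand; a CRE beginning at -143): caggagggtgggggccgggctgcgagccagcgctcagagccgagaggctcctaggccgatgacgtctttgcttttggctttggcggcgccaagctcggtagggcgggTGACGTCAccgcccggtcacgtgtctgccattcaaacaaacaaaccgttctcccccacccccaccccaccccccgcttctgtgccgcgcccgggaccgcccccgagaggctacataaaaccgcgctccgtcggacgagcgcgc
Dusp5 (chr19:53528895-53529144, plus strand; adjoining CArG boxes beginning at -82 and -72): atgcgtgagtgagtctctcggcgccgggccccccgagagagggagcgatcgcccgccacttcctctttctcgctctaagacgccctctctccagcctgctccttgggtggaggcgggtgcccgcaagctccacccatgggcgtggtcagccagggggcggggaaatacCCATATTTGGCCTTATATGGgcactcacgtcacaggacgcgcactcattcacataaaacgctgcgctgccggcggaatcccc
Btg2 (chr1:134079156-134079405, minus strand; a CRE beginning at -166 and an EGR site at -131): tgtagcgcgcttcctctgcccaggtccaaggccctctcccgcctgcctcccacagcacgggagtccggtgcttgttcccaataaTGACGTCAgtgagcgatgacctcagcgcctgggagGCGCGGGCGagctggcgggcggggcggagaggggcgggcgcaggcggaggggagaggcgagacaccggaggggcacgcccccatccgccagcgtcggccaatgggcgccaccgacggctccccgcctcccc
Maff, Dusp1 and Dusp5 fell in the mutant hearts, and Btg2 did not pass.

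AU-rich elements, the sites through which ZFP36 and related proteins mark transcripts for decay, were counted in the longest annotated 3′ UTR of each gene (GENCODE M21). The nonamer TTATTTATT was found in 7 of 39 members (17.9%) and in 8.17% of 14171 tested genes with a 3′ UTR, with median 3′ UTR lengths of 1190 and 1183 bases. It was found in 5 of the 19 members that fell and in 2 of the 18 that did not pass, and in neither Klf10 nor Gadd45b. The shorter element ATTTA differed less. It occurred 1.99 times per kilobase of 3′ UTR in the members and 1.81 times in all tested genes. By call, it occurred 1.95 times per kilobase in members that fell and 2.05 times in those that did not pass. The first nonamer is shown in capitals with its neighbouring bases, for Maff, Dusp1 and Zfp36, which fell, and for Fos, which did not pass.
Maff: ttccacactcTTATTTATTgcacgaatct
Dusp1: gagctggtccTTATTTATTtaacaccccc
Zfp36: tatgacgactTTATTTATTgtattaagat
Fos: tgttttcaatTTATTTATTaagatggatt

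The small MAF genes, Maff, Mafk and Mafg, all fell. Their proteins are bZIP factors without an activation domain that pair with each other or with CNC factors such as NFE2L2 and BACH1. Maff (chromosome 15, 79347541 to 79359072) was at 18.4, 21.0, 20.1 and 18.1 CPM in mutant replicates 1 to 4 and at 36.9, 39.4, 35.4 and 37.3 CPM in WT replicates 1 to 4. Every mutant library lay well below every WT library, and the fitted level in mutants was 52.1% of that in WT (-0.94 ± 0.06, adjusted p = 9.91e-07). Mafg (chromosome 11, 120625117 to 120633600) differed less but with the least scatter of any member in the mutants: 62.4, 63.3, 63.5 and 62.9 CPM in mutant libraries, against 79.1, 78.1, 76.6 and 81.2 CPM in WT libraries. Its change was -0.32 ± 0.04 (adjusted p = 8.2e-05), with no overlap between the genotypes. Mafk (chromosome 5, 139791513 to 139802653) was at 30.8, 42.3, 38.7 and 35.6 CPM in mutant libraries and 46.7, 52.6, 46.0 and 44.1 CPM in WT libraries. It fell by 0.36 on the log2 scale (adjusted p = 0.0273) without overlap, but the call was lost without mutant replicate 3 (adjusted p = 0.0558) or 4 (0.0754), or without WT replicate 1 (0.0666), 2 (0.0715) or 3 (0.0553). Exons of Mafg overlap those of Sirt7 on the same strand, which held 2940 counts over all libraries against 11111 for Mafg and was at -0.04 ± 0.06. Those of Mafk overlap Tmem184a, with 138 counts against 6621 for Mafk.

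**Figure D2:**
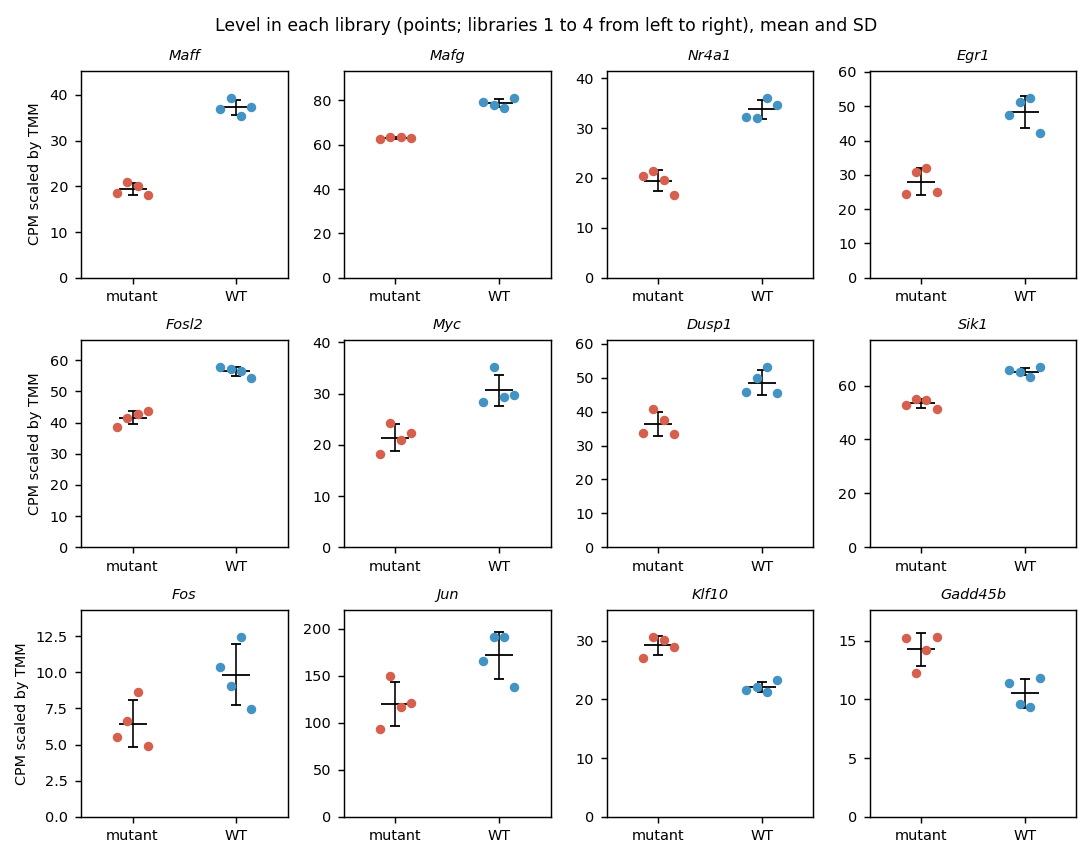
Level of 12 early response genes in CPM scaled by TMM (vertical axes, from 0) in each mutant (left, red points) and WT (right, blue points) library, with mean and SD (n = 4 each). The genotypes are apart for all but Fos and Jun, with mutants lower except for Klf10 and Gadd45b, where they are higher.

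The EGR genes encode zinc finger activators induced through SRF. Egr1 (chromosome 18, 34859823 to 34864984) fell to 28.1 ± 3.86 CPM in mutant hearts, against 48.3 ± 4.59 CPM in WT hearts (-0.78 ± 0.10, adjusted p = 0.00113). Its libraries stood at 24.5, 30.8, 32.0 and 25.0 CPM in mutants and 47.3, 51.1, 52.5 and 42.3 CPM in WT, so the genotypes did not overlap. Egr2 and Egr3, far scarcer, had changes of similar size that did not pass. Egr2 was at 1.11, 2.14, 1.81 and 1.39 CPM in mutant and 2.39, 3.45, 2.47 and 2.11 CPM in WT libraries (-0.69 ± 0.23, adjusted p = 0.06). Egr3 was at 0.687, 1.12, 1.70 and 0.768 CPM in mutant and 2.18, 2.70, 1.93 and 1.22 CPM in WT libraries (-0.91 ± 0.31, adjusted p = 0.0651). Mutant replicate 2 lay above WT replicate 4 for Egr2, and mutant replicate 3 lay above WT replicate 4 for Egr3, while the other mutants lay below all WT libraries. Egr2 passed without mutant replicate 2 (adjusted p = 0.0343), and Egr3 without mutant replicate 3 (0.0215) or WT replicate 4 (0.0385).

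The NR4A genes encode orphan nuclear receptors that act without a known hormone and are induced by cAMP and calcium. Nr4a1 (chromosome 15, 101266846 to 101274792) was at 20.3, 21.4, 19.65 and 16.55 CPM in mutant libraries and 32.3, 32.0, 36.1 and 34.7 CPM in WT libraries. All mutants lay below all WT hearts (-0.79 ± 0.07, adjusted p = 1.29e-05). The scarcer Nr4a3 fell by the same amount, with 3.06, 2.0, 2.17 and 1.82 CPM in mutant and 3.75, 4.30, 3.61 and 4.00 CPM in WT libraries (-0.79 ± 0.18, adjusted p = 0.00839). Nr4a2 showed 5.17 ± 1.025 CPM in mutant and 5.03 ± 0.29 CPM in WT hearts, and its small change (0.04 ± 0.15, adjusted p = 0.923) changed sign with 5 of the alternative settings.

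AP-1 is a dimer of one FOS and one JUN subunit, or of 2 JUN subunits. In the FOS group, 1 of 4 genes fell and 3 did not pass. Fosl2, the gene of FRA-2, had 38.7, 41.4, 42.6 and 43.75 CPM in mutant and 57.8, 57.1, 56.5 and 54.2 CPM in WT libraries. It did not overlap between the genotypes (-0.44 ± 0.05, adjusted p = 5.87e-05; chromosome 5, 32135801 to 32157842). Fos, the founding member of the family, was at 5.55, 6.65, 8.61 and 4.89 CPM in mutant and 10.3, 9.04, 12.5 and 7.44 CPM in WT libraries. Mutant replicate 3 lay above WT replicate 4, and the change of -0.61 ± 0.20 did not pass (adjusted p = 0.0807). Leaving out mutant replicate 3 (adjusted p = 0.0181) or WT replicate 4 (0.0405) put it past the threshold, as did DESeq2 (0.0163). Fosb (2.71 ± 1.20 CPM in mutant, 3.45 ± 0.58 in WT) and Fosl1 (3.30 ± 0.47 and 3.47 ± 0.37 CPM in the same order) did not pass, at -0.35 ± 0.26 and -0.07 ± 0.16.

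None of the 3 JUN genes passed with edgeR, although each was below 0 with an unadjusted p under 0.05; DESeq2 called 2 of them and limma-voom 1. Jun was at 93.1, 149.7, 117 and 120.5 CPM in mutant and 165.4, 191.5, 191.3 and 138.1 CPM in WT libraries. Only mutant replicate 2 and WT replicate 4 overlapped, and the change of -0.51 ± 0.17 had an adjusted p of 0.118, although DESeq2 (0.0281), limma-voom (0.032) and the fit that is not robust (0.0317) put it past the threshold. Jund, the most abundant member in CPM, had 182 ± 11.6 CPM in mutant and 211 ± 20.6 CPM in WT hearts (-0.22 ± 0.07, adjusted p = 0.0649). Leaving out WT replicate 4 (0.012) or using DESeq2 (0.0144) put it past the threshold. Junb, at 12.0 ± 1.69 CPM in mutant and 14.4 ± 1.38 CPM in WT hearts (-0.27 ± 0.10, adjusted p = 0.101), passed without mutant replicate 3 (0.038). Exons of Junb overlap those of Prdx2 on the other strand, which held 48445 counts against 2069 for Junb, and whether reads were counted by strand is unknown here.

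The other bZIP genes gave 0 calls among 4 by edgeR, DESeq2 and limma-voom, with 2 at an unadjusted p under 0.05 in edgeR. Atf3, a stress-induced repressor, had 9.46, 18, 16.45 and 18.3 CPM in mutant libraries and 24.75, 40.7, 36.65 and 15.3 CPM in WT libraries, the widest relative spread of any member among WT libraries. WT replicate 4 lay below 3 of the 4 mutants, and the change of -0.92 ± 0.37 had an adjusted p of 0.178. The C/EBP factors Cebpb (-0.24 ± 0.25, adjusted p = 0.625) and Cebpd (-0.26 ± 0.09, adjusted p = 0.0842) and the repressor Nfil3 (-0.07 ± 0.05, adjusted p = 0.47) did not pass. Cebpd passed without WT replicate 2 (adjusted p = 0.0461).

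The KLF genes, zinc finger factors of which Klf2 and Klf4 are known for their response to flow in endothelium, moved both ways. Klf6 fell to 91.3 ± 5.40 CPM in mutant hearts, against 113 ± 6.58 CPM in WT hearts (-0.31 ± 0.05, adjusted p = 0.00078). Klf10, a TGF-beta-induced repressor (chromosome 15, 38294413 to 38300707), rose. It had 27.1, 30.7, 30.1 and 28.9 CPM in mutant and 21.6, 22.1, 21.3 and 23.3 CPM in WT libraries, with no overlap (0.40 ± 0.06, adjusted p = 0.000356). Klf4 was called lower (34.2 ± 1.98 CPM in mutant, 39.4 ± 3.37 CPM in WT hearts, -0.20 ± 0.06, adjusted p = 0.0436), but its genotypes overlapped. That call was lost with DESeq2 (adjusted p = 0.0554), limma-voom (0.0739), upper quartile scaling (0.0609), library totals (0.139) and the fit that is not robust (0.0643). It was also lost without mutant replicate 1 (adjusted p = 0.109), 2 (0.0837) or 4 (0.124) or WT replicate 1 (0.101), 3 (0.137) or 4 (0.0584). Klf2, at 43.6 ± 2.10 CPM in mutant and 47.1 ± 2.58 CPM in WT hearts, did not pass (-0.11 ± 0.05, adjusted p = 0.193). Of 12 endothelial and endocardial markers, 4 fell and 1 rose, against 7.49% lower and 5.75% higher over all genes tested. Their summed levels were 1824 to 2027 CPM in mutant and 1935 to 2141 CPM in WT libraries. The part of these markers in the KLF values was not tested.

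Of 3 further nuclear factors, 2 fell. The growth regulator Myc (chromosome 15, 61985391 to 61990374) was at 18.1, 24.3, 20.9 and 22.4 CPM in mutant and 28.3, 35.2, 29.3 and 29.7 CPM in WT libraries. No mutant library reached the WT range (-0.51 ± 0.09, adjusted p = 0.00303). Csrnp1, a nuclear protein first known as an AXIN1-induced gene, fell with a narrow gap: its highest mutant library had 14.1 CPM and its lowest WT library 14.2 CPM (-0.52 ± 0.11, adjusted p = 0.00611). The clock repressor Per1 stood at 83.4 ± 11.2 CPM in mutant and 91.1 ± 1.64 CPM in WT hearts and did not pass (-0.13 ± 0.09, adjusted p = 0.425).

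The MAPK phosphatases all fell. Dusp1, a nuclear phosphatase of p38, JNK and ERK, was at 33.8, 40.8, 37.5 and 33.5 CPM in mutant and 45.8, 49.8, 53.1 and 45.4 CPM in WT libraries. Its genotypes were apart (-0.42 ± 0.07, adjusted p = 0.00159). Dusp5, which acts on ERK in the nucleus, had 16.1 ± 1.48 CPM in mutant and 20.2 ± 1.25 CPM in WT hearts (-0.33 ± 0.08, adjusted p = 0.0104), also without overlap. Dusp6, its cytoplasmic counterpart, had 38.97 ± 3.54 CPM in mutant and 47.6 ± 3.63 CPM in WT hearts (-0.29 ± 0.07, adjusted p = 0.0127). Mutant replicate 2 lay above WT replicate 4 for Dusp6, and the call was lost without mutant replicate 3 (adjusted p = 0.0553).

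Of the IER genes, 2 of 3 fell. Ier2, a nuclear protein of growth factor responses, had 24.5, 26.5, 25.2 and 24.6 CPM in mutant and 32.2, 36.9, 31.4 and 32.5 CPM in WT libraries. The mutant libraries lay close together and below all WT libraries (-0.40 ± 0.06, adjusted p = 0.000493). Ier3, a survival factor of stressed cells, fell by 0.24 on the log2 scale (adjusted p = 0.0322). The call was lost without mutant replicate 1 (adjusted p = 0.0904) or 4 (0.105) or WT replicate 2 (0.0949) or 3 (0.0823), with library totals (0.0662), with limma-voom (0.0557) and in the fit that is not robust (0.0518). Ier5, a regulator of the heat shock factor HSF1, did not pass (-0.16 ± 0.06, adjusted p = 0.109).

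Among 6 regulators of RNA decay, growth arrest and signalling, 3 fell and 1 rose. Sik1, a salt-inducible kinase that restrains CREB coactivators, had 52.8, 54.8, 54.6 and 51.3 CPM in mutant and 65.7, 65.0, 63.3 and 66.8 CPM in WT libraries. The pseudokinase gene Trib1 had 21.2, 20.2, 19.8 and 21.8 CPM in mutant and 24.9, 28.1, 25.9 and 26.7 CPM in WT libraries. Both had little scatter and no overlap (-0.29 ± 0.04, adjusted p = 0.000391 for Sik1, and -0.35 ± 0.06, adjusted p = 0.00135 for Trib1). Zfp36, which binds AU-rich elements, fell to 18.95 ± 1.37 CPM in mutant hearts, against 24.6 ± 2.70 CPM in WT hearts (-0.38 ± 0.08, adjusted p = 0.00572). Gadd45b, a stress sensor upstream of p38 and JNK (chromosome 10, 80930091 to 80932204), rose: 15.3, 12.3, 14.2 and 15.4 CPM in mutant, against 11.4, 9.59, 9.40 and 11.8 CPM in WT libraries. Its lowest mutant library lay just above its highest WT library (0.44 ± 0.10, adjusted p = 0.00854). The antiproliferative Btg2 (41.1 ± 6.39 CPM in mutant, 54.3 ± 9.09 CPM in WT, -0.40 ± 0.16, adjusted p = 0.172) and the cytokine inhibitor Socs3 (8.21 ± 1.30 CPM in mutant, 8.54 ± 0.80 CPM in WT, -0.06 ± 0.12) did not pass.

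**Figure D3:**
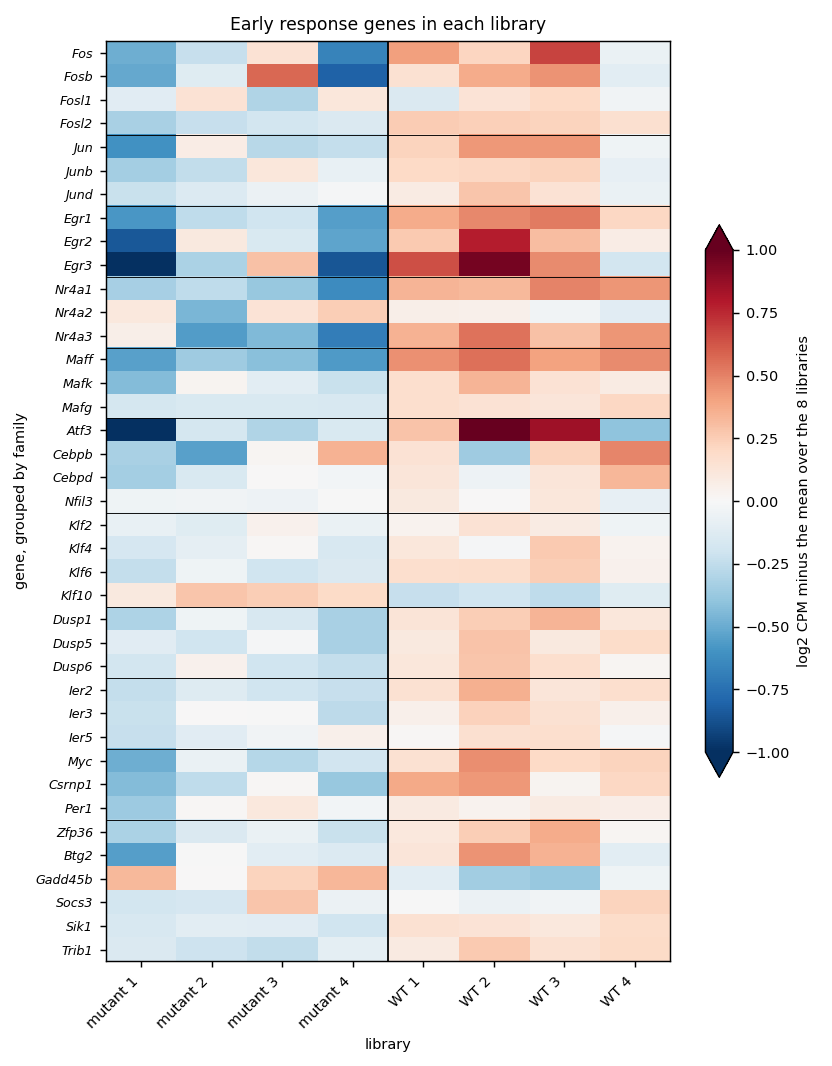
Log2 CPM of each early response gene minus its mean over the 8 libraries (colour, red above and blue below the mean, cut at ± 1), with mutant libraries left of the line and WT libraries right of it. Maff, Nr4a1 and Egr1 change colour cleanly at the line, Klf10 and Gadd45b change the other way, and mutant replicate 1 and WT replicate 4 are the lowest of their genotype for Jun and Atf3.

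Within a genotype, the same libraries were lowest for many members. Mutant replicate 1 was the lowest of the 4 mutants for 22 of 39 members, and WT replicate 4 was the lowest of the 4 WT libraries for 21 of 39. Their median ratios to the genotype's mean were 0.928 and 0.945. How often these libraries were lowest over all genes tested was not counted. A trait of the members therefore cannot be told from one of the whole library. Mutant replicates 2 and 3 were the highest mutants for 15 and 14 members, and WT replicate 2 was the highest WT library for 17. The coefficient of variation had a median over members of 10.4% in mutant and 7.83% in WT hearts, against 7.18% and 7.13% over all genes tested. In mutants it ran from 0.768% for Mafg to 44.2% for Fosb, and in WT from 1.80% for Per1 to 39.3% for Atf3. Without mutant replicate 1 and WT replicate 4 together, 20 members were called lower and 2 higher. Over all genes, 880 were then called lower and 620 higher, against 1226 and 942 with all libraries. Of the 19 lower calls made on all libraries, 17 were kept, with Klf4 and Ier3 lost and Atf3, Btg2 and Jund gained.

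Levels per kilobase of gene length (RPKM) set the members in order. Jund led with 109 ± 6.93 RPKM in mutant and 126 ± 12.3 RPKM in WT hearts, followed by Jun with 37.6 ± 7.27 and 53.8 ± 7.99 RPKM. Ier3, Klf6 and Klf2 came next in WT, at 32.3, 26.9 and 25.5 RPKM; in mutants Klf2 (23.6 ± 1.14 RPKM) stood above Klf6 (21.7 ± 1.28 RPKM), a gap smaller than the sum of their SDs. Maff ranked 9 of 39 in WT at 17.6 ± 0.78 RPKM, above Mafg (14.0 ± 0.345) and Mafk (12.1 ± 0.95), and in mutants it stood at 9.16 ± 0.65 RPKM, below Mafg (11.2 ± 0.09) and within 1 SD of Mafk (9.45 RPKM). Fosb, Nr4a3, Egr2, Nr4a2 and Egr3 were scarcest, all under 1.5 RPKM in both genotypes. Among the FOS genes the order was Fosl2 (4.30 ± 0.23 RPKM in mutant, 5.83 ± 0.16 RPKM in WT), then Fos (2.73 ± 0.69 and 4.17 ± 0.90 RPKM in the same order), Fosl1 and Fosb.

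Genes around the early response were read from lists chosen with earlier results of these data known, and their counts are descriptions. Over all genes tested, 7.49% were called lower and 5.75% higher. Of 21 kinases and factors upstream (MAP kinases, MAPK kinases, RSK and CREB genes), 1 fell and 1 rose, with a median log2 fold change of 0.02. These were the ERK kinase Map2k1 (85.9 ± 3.95 CPM in mutant, 108 ± 2.32 CPM in WT hearts, -0.33 ± 0.04) and Creb1 (0.17 ± 0.05). Of 7 genes for SRF, its ternary complex factors and its MRTF coactivators, 1 rose, Mrtfb (0.17 ± 0.05, adjusted p = 0.0423), and none fell (median 0.06). Of 12 SRF and MRTF targets of the cytoskeleton, 8 fell and all 12 were below 0 (median -0.21); the difference between the lists was not tested. Among them Ccn1, a matricellular protein that is itself induced early, fell to 42.5 ± 3.74 CPM in mutant hearts, against 79.2 ± 7.50 CPM in WT hearts (-0.90 ± 0.08, adjusted p = 4.31e-05), and the calponin gene Cnn2 fell by 0.37 on the log2 scale.

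Inhibitors fed back by ERK and the PEA3 factors fell as well, with 7 of 11 called lower, none higher and all 11 below 0 (median -0.26). Spry4, a Sprouty inhibitor of receptor signalling, was at 27.4 ± 2.59 CPM in mutant and 40.8 ± 3.99 CPM in WT hearts (-0.57 ± 0.08, adjusted p = 0.000476), and Spry2 (-0.25 ± 0.06) and Spred2 (-0.26 ± 0.05) fell too. The 6 other MAPK phosphatases gave 0 calls in either direction by edgeR (median -0.09), with 0 lower and 0 higher at an unadjusted p under 0.05, 0 called by DESeq2 and 0 by limma-voom; the difference from the 3 early ones was not tested. Of 38 other early response genes tested, 12 fell and 2 rose (median -0.20), against 7.49% lower and 5.75% higher over all genes tested. Sgk1, a kinase induced by serum and glucocorticoids (47.7 ± 4.09 CPM in mutant, 77.2 ± 10.7 CPM in WT, -0.70 ± 0.11), Phlda1 (-0.49 ± 0.09) and the G protein regulator Rgs2 (-0.45 ± 0.08) fell, and the growth-arrest gene Btg1 (0.29 ± 0.05) and interferon-regulated Irf1 (0.30 ± 0.08) rose. Among 18 tested bZIP partners 4 fell, with Atf4 at -0.29 ± 0.05 and Atf5 at -0.30 ± 0.06, and among 10 other KLF genes 2 fell, Klf15 (-0.50 ± 0.06) and Klf13 (-0.21 ± 0.05).

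Markers of other cell types were measured beside these genes. Their calls stand beside 7.49% lower and 5.75% higher over all genes tested. Erythroid markers summed to 1253 to 1973 CPM in mutant and 2035 to 3893 CPM in WT libraries, so they moved with genotype without overlap, although 0 of the 8 tested were called by edgeR (median -0.74). At an unadjusted p under 0.05, 4 were lower and 0 higher; DESeq2 called 4 and limma-voom 4. With haemoglobin counts as a covariate 15 members were called lower and 2 higher, and over all genes 295 and 133. Of the 19 lower calls 11 were kept, and 37 of 39 members were below 0 with a median of -0.41. The 8 calls lost included Nr4a3 (-0.66, adjusted p = 0.234) and Sik1 (-0.26, 0.0514), both nearer 0 than without the covariate. The others were farther below 0. They were Mafk (-0.52, adjusted p = 0.0663), Klf4 (-0.31, 0.109), Dusp5 (-0.38, 0.118), Dusp6 (-0.39, 0.069), Csrnp1 (-0.60, 0.108) and Trib1 (-0.36, 0.0584). Haemoglobin took 0.123% to 0.193% of the counts in mutant and 0.195% to 0.370% in WT libraries. This covariate was thus itself apart by genotype. Lung and airway markers ranged from 341.5 to 1179 CPM in mutant and from 398 to 886 CPM in WT libraries (0 of 14 called by edgeR, 1 at an unadjusted p under 0.05, 0 by DESeq2 and 0 by limma-voom). In the 5 libraries with airway RNA, 1062 of all genes were called lower and 609 higher. Among the members, 14 were called lower and 2 higher, with 35 of 39 below 0. Calls lost there were Klf4 (adjusted p = 0.0855), Ier3 (0.0977), Csrnp1 (0.0879), Zfp36 (0.0678) and Dusp5 (0.0709). The other 3 libraries hold 1 WT heart, replicate 2, which is the highest WT library for 17 members, so their fitted changes are given as values without calls. Maff stood at -0.94 with airway RNA and -0.99 in the other 3 libraries, Egr1 at -0.74 and -0.88, and Klf10 at 0.42 and 0.39. Smooth muscle and pericyte markers summed to 1607 to 1782 CPM in mutant and 1808 to 2003 CPM in WT libraries, with 2 of 10 called lower. Fibroblast markers had 2 of 10 lower, macrophage and myeloid markers 1 of 12 higher, and cardiomyocyte markers 2 of 12 lower. The part of these cell types in the early response values was not tested.

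**Figure D4:**
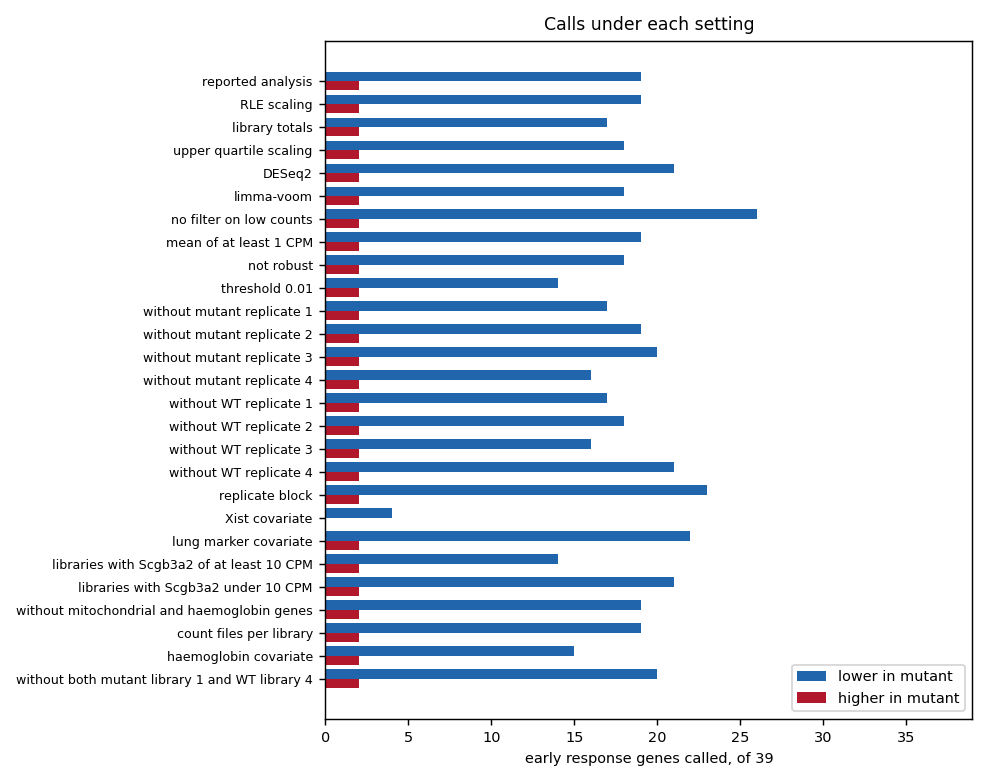
Number of the 39 early response genes called lower (blue) or higher (red) in mutant hearts under each setting of the analysis (rows, horizontal axis from 0). Lower calls lie between 14 and 26 and higher calls stay at 2, except with Xist as a covariate, where 4 are lower and none higher. The 26 belong to the fit with no filter on low counts, and no other setting exceeds 23. The setting with Scgb3a2 under 10 CPM holds 1 WT library, so its bars are not read as calls.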

How the data were processed

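RNA was extracted with Trizol and sequenced from TruSeq libraries, per the labels' protocols. The authors deposited unnormalized read counts for each gene; the submitters' processing notes name Trimmomatic 0.36, STAR 2.5.2b, featureCounts of Subread 1.5.2 and GRCm38 (mm10). No source used here gives a strand setting. The featureCounts gene length (other values deposited beside the counts) set the per-kilobase levels. No value differed between the series-wide table and the files per library. Of 49315 genes, 48970 had a symbol in GENCODE M21, and 28 of the 39 members had the same position there; positions are those of the count files. Exons of 9 members overlap another gene's.

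The members and lists were chosen with earlier results of these data known. Genes were kept by filterByExpr (minimum count 10), which left 16372, scaled by TMM, and compared by edgeR 4.0.16 (robust quasi-likelihood test, no covariate; biological coefficient of variation 0.0908) in R 4.3.3, with Benjamini-Hochberg adjustment. Standard errors are the log2 fold change over the root of the F statistic. Alternatives included DESeq2 1.42.0 and limma 3.58.1; a haemoglobin covariate and leaving out 2 libraries together were added after the data were examined. All members were named, and from each list at most 3 called genes per direction by adjusted p. Replicates were not repeats of 1 library: chi-square per degree of freedom within a genotype ran from 2.88 to 9.29.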

Additional observations from a re-analysis of the deposited data

Results flagged for a closer look

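Among the WT libraries, Junb in replicate 4 stood apart from the other 3, at 12.3 CPM against 15.0 to 15.2 CPM. The gap to its nearest neighbour took up 0.923 of the range of the 4 WT libraries. Of 84 groups of 4 libraries checked, this was the only one so placed. That is a smaller share than the 1 in 20 or so that chance gives, so the gap is only described. Exons of Junb overlap those of Prdx2, at 305.9 CPM in that library and 301 to 325 CPM in the other WT libraries.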

How the results depend on the processing

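Lower calls among the 39 members numbered 14 to 26 in all settings but 1, and higher calls 2. With Xist as a covariate they were 4 and 0. The 26 came from the fit with no filter on low counts, and no other setting gave more than 23. That fit also called more genes over all, 1368 lower and 1230 higher, against 1226 and 942 with the filter. Leaving out 1 library at a time gave 16 to 21 lower and 2 higher members, 899 to 1137 lower and 579 to 850 higher genes (579 without WT replicate 1), and 30 to 39 lower and 3 to 7 higher genes of the pathway lists (40 and 6 with all libraries). Over all genes, 644 were lower and 392 higher at a threshold of 0.01, 141 and 109 with Xist, 295 and 133 with haemoglobin, and 812 and 595 in the airway-poor libraries, which hold 1 WT heart; 609 were higher in the libraries with airway RNA, 620 without mutant replicate 1 and WT replicate 4, and 1856 (858 lower) with library totals, which moved the median of all genes by 0.05. In the pathway lists, 23 were lower and 2 higher at 0.01, 6 and 1 with Xist, 15 and 1 with haemoglobin, and 13 higher with library totals. The cause was not tested. Signs turned only for members that were not called: Fosl1 (-0.1323 to 0.0184 when 1 library was left out), Socs3 (-0.1614 to 0.0122 when 1 library was left out, 0.0511 with airway RNA, 0.0611 without mutant replicate 1 and WT replicate 4) and Nr4a2 (-0.0400 to 0.1718 when 1 library was left out, -0.0233 without mutant replicate 1 and WT replicate 4, -0.2061 with Xist and in the airway-poor libraries, -0.0202 with haemoglobin). With the replicate number as a block, 23 members were lower and 2 higher. Calls over all genes grew as well, to 1432 lower and 1023 higher, against 1226 and 942 without the block. Same-numbered libraries had deviations correlated at -0.475, 0.746, 0.505 and 0.0122, and differently numbered ones at -0.747 to 0.62. Such values cannot decide whether equal numbers mark paired hearts. Sex as a factor was not run, since the file headers name all libraries as male. Fosb, Fosl1, Egr2, Egr3 and Nr4a3 averaged under 5 CPM in both genotypes, so few counts stand behind their values.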

Other observations

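Programmes that share inducers with the early genes were read from lists too. Their counts stand beside 7.49% called lower and 5.75% called higher over all genes tested. Of 12 glucocorticoid-responsive genes 5 fell and none rose (median -0.24): the transcription factor Zbtb16 was at 20.95 ± 1.05 CPM in mutant and 28.5 ± 1.34 CPM in WT hearts (-0.44 ± 0.06, adjusted p = 0.000204), and Hif3a (-0.30 ± 0.04) and the metallothionein Mt1 (-0.31 ± 0.05) fell as well. Sgk1 and Errfi1 of this list are also counted in other lists above, as is Klf9. Of 16 circadian clock genes 1 fell and 2 rose (median -0.02). The nuclear receptor Rora fell to 20.6 ± 2.73 CPM in mutant hearts, against 34.9 ± 1.46 CPM in WT hearts (-0.76 ± 0.08, adjusted p = 5.03e-05), while the PAR bZIP factor Hlf (0.48 ± 0.08) and the REV-ERB gene Nr1d2 (0.21 ± 0.06) rose. Of 10 heat shock genes 2 fell, the co-chaperone Bag3 (-0.20 ± 0.04) and the inducible Hspa1a (3.01 ± 0.51 CPM in mutant, 4.54 ± 0.59 CPM in WT, -0.59 ± 0.16, adjusted p = 0.0228). Mitochondrial transcripts took 4.80% to 4.95% of the counts in mutant and 4.40% to 4.83% in WT libraries.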
